A study of Mus musculus with 13 samples.

Results

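The genes of the cytosolic ribosome were followed in splenic regulatory T (Treg) cells labelled as deleted for Stk3 and Stk4, the kinases of the mammalian Hippo pathway, and in controls. A row of the deposited count table was taken as a cytosolic ribosomal protein gene if its symbol was Rpl or Rps followed by a number and an optional a or x, or was Rpsa, Rplp0, Rplp1 or Rplp2. That rule found 76 genes among the 26720 rows, 46 of the large subunit (Rpl and Rplp) and 30 of the small subunit (Rps and Rpsa), and all 76 passed the filter on low counts. The members were RNA sequencing counts in 13 libraries. The control group held 7 libraries of Foxp3YFPCre Treg cells and the deleted group held 6 libraries of Foxp3YFPCre/+Stk3∆/∆Stk4∆/∆ Treg cells, in both cases CD4+YFP+ cells sorted from spleens of mice of about 4 to 5 weeks. The deleted libraries carry the replicate numbers 1, 2, 3, 4, 5 and 7 and the controls the numbers 1 to 7.

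The Foxp3YFPCre allele puts a fluorescent reporter and the Cre recombinase under Foxp3, the gene of the Treg lineage factor, so both groups carry Cre. Foxp3 is on the X chromosome, and the deleted group has 1 Cre allele beside a wild-type allele, while the labels leave the zygosity of the controls unstated. Which mouse, or how many mice, gave each library was not stated, and a p-value therefore speaks of the spread among libraries, which may be technical in part. The level of Stk4, in CPM (counts scaled to a common library size), was 394, 204, 146, 129, 97.6 and 57.9 in deleted 1, 2, 3, 4, 5 and 7 and ran from 136 through a median of 228 to 291 in the controls. For Stk3 the deleted libraries ran from 26.8 through a median of 33.5 to 44.2 CPM and the controls from 24.8 through 30.8 to 47.9 CPM. The groups overlapped for both kinases. In edgeR's quasi-likelihood test, log2 of deleted over control was -0.31 (SE 0.33, adjusted p = 0.576) for Stk4 and -0.01 (SE 0.20, adjusted p = 0.981) for Stk3. These are counts over the whole gene, and no source used here names the exons removed, so they do not check the labels. The library labelled deleted 1 had the highest Stk4 value of all 13.

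A ribosome joins a small subunit, which reads the mRNA, to a large subunit, which forms the peptide bond. Each ribosomal protein is present once per subunit, the stalk proteins apart, and the genes are among the most heavily transcribed of a growing cell. Their mRNAs carry a terminal oligopyrimidine (TOP) tract, a run of C and T that begins at the first transcribed base, through which mTOR and the RNA-binding protein Larp1 control their translation. T cells enlarge this pool when they are activated.

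The start of the transcript carries the sequence feature that the family shares. RefSeq windows of the GRCm38.p6 build, from 250 bases before to 50 bases after the annotated start, were matched for 56 of the 76 genes. In 13 of the 56 (23.2%) the start base of an annotated transcript was a C within an unbroken run of at least 5 C or T letters on the transcribed strand, which held for 2.97% of other genes. The windows of 8 of these 13 genes are printed here, each with 25 bases before the start and 20 from it, 5′ to 3′ on the gene's strand. Capitals mark the pyrimidine tract, whose first letter is the annotated start.
Rps6: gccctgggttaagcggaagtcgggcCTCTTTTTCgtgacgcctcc
Rps21: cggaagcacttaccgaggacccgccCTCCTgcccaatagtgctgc
Rps10: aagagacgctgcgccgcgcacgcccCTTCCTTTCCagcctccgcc
Rpl15: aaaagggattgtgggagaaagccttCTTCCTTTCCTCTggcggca
Rpl35a: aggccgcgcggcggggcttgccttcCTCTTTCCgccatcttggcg
Rplp2: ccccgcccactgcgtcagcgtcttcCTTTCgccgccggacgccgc
Rpl28: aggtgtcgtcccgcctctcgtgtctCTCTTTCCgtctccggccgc
Rpl38: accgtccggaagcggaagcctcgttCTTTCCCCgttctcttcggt

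These windows lie at chr4:86857348-86857392 (minus strand) for Rps6, chr2:180257354-180257398 (plus) for Rps21, chr17:27635225-27635269 (minus) for Rps10 and chr14:18270967-18271011 (minus) for Rpl15. Those of Rpl35a, Rplp2, Rpl28 and Rpl38 lie at chr16:33056457-33056501, chr7:141447626-141447670, chr7:4792940-4792984 and chr11:114668555-114668599, all on the plus strand. The start is that of the gene as annotated except in Rpl35a and Rpl38, where it belongs to a transcript that begins 29 and 762 bases further in. The tract was 5 letters long in Rps21 and Rplp2 and 13 in Rpl15, the shortest and longest of the 13 genes. In the whole windows, searched on both strands, the letters CCGGAAG (the core bound by ETS factors such as GABP) were present in 23 of 56 ribosomal protein genes (41.1%) and in 9.86% of other genes. The letters AAGATGG (YY1), which can share AAG with the former, were present in 9 (16.1%) against 7.26%, GGGCGG (SP factors) in 34 (60.7%) against 38.2%, and TATAAA (the TATA box) in 6 (10.7%) against 15.7%. A match is a run of letters and not a shown binding site.

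The 76 genes together took a smaller share of the total count in 5 of the 6 deleted libraries than in any control library. Their share was 2.62, 1.46, 1.29, 1.62, 1.43 and 0.900% in deleted 1, 2, 3, 4, 5 and 7. In control 1 to 7 it was 2.10, 1.91, 2.39, 2.81, 3.60, 2.80 and 2.82%. The library labelled deleted 1 lay among the controls and the other 5 lay below all of them. The group means were 1.55 ± 0.577% (SD, n = 6) and 2.63 ± 0.562% (SD, n = 7). In bulk RNA, fewer cells of a type and less RNA per cell cannot be told apart. The proportion of the subunits to each other moved little: the log2 ratio of large to small subunit counts averaged 0.18 ± 0.0572 (SD, n = 6) with the deletion and 0.20 ± 0.0477 (SD, n = 7) without it, a difference within the spread. Taken from medians over the genes of each subunit, the difference had the opposite sign and was also within the spread.

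Several properties of the libraries moved with that share. Library totals ran from 2671660 to 8323919 counts, averaging 3616410 ± 621524 (SD, n = 6) for the deleted group and 5667340 ± 1682250 (SD, n = 7) for the controls. The lowest total and the lowest ribosomal protein share were both in deleted 7, and the highest of both in control 5. Olfactory and vomeronasal receptor genes, 1482 rows that Treg cells are not known to use, took 0.761, 1.25, 1.32, 1.14, 1.36 and 1.89% of the count in deleted 1, 2, 3, 4, 5 and 7. In control 1 to 7 they took 0.953, 1.07, 0.761, 0.472, 0.371, 0.556 and 0.800%. Receptor share was thus highest where ribosomal protein share was lowest, and the other way round. Of the 6 T cell markers Cd4, Cd3e, Ctla4 and Ikzf2 fell and Foxp3 and Il2ra did not pass the test, with summed levels of 616 to 1258 CPM in deleted and 853 to 3094 CPM in control libraries. The 6 B cell markers summed to 138 to 207 CPM against 363 to 1175 CPM, with Ighm, Cd74 and Cd79b lower and Ms4a1 higher. The CD8 (Cd8a, Cd8b1), NK, myeloid and red cell markers did not pass the test, and their sums overlapped between the groups and were above 0 in every library. The part of B cell RNA in the ribosomal protein result was not tested.

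**Figure D1:**
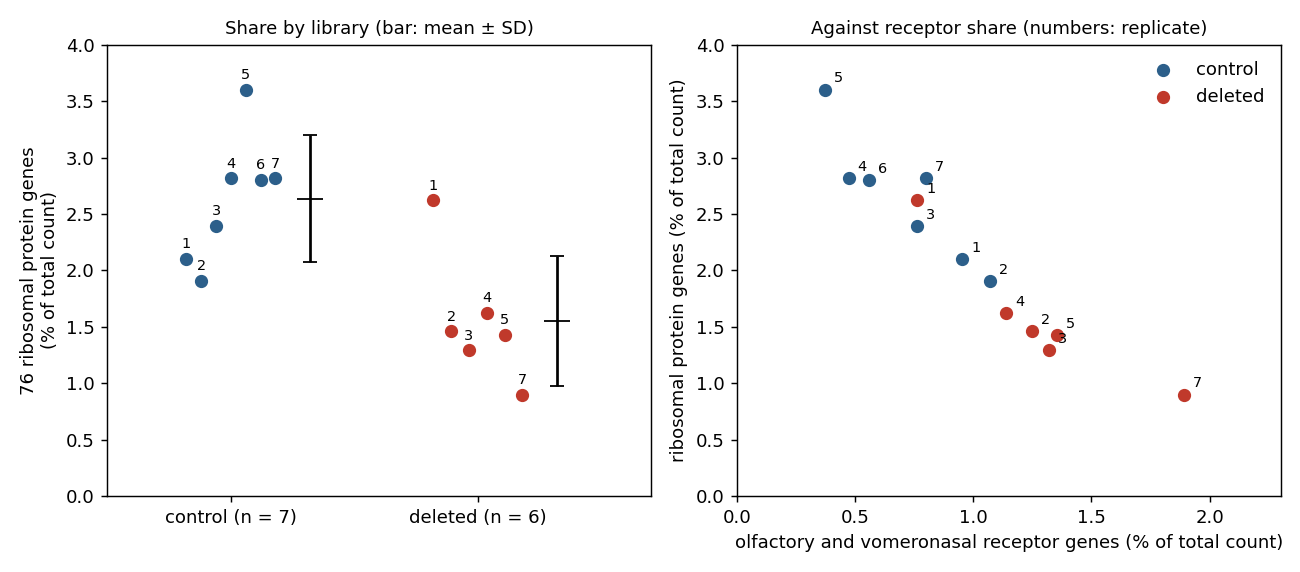
Share of the total count in the 76 ribosomal protein genes in each library (left, with mean and SD per group) and the same share against that of olfactory and vomeronasal receptor genes (right), numbers giving the replicate. The deleted libraries other than deleted 1 lie between 0.900 and 1.62%, below the lowest control at 1.91%, and the share falls from left to right along the receptor axis.

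Relative to control, 47 of the 76 ribosomal protein genes fell in the deleted libraries, 0 rose and 29 did not pass an adjusted p of 0.05 (edgeR's quasi-likelihood test, Benjamini-Hochberg adjustment over the 24068 genes tested). Of all genes tested 8.52% fell and 1.66% rose. The fitted log2 fold change was below 0 for each of the 76 genes, from -2.05 for Rpl30 to -0.44 for Rpl31, with a median of -1.08 beside 0.06 for all genes. Values given for a gene from here on, where not in CPM, are log2 fold changes of deleted over control. Of the large subunit genes 27 of 46 fell (median -1.07) and of the small subunit genes 20 of 30 (median -1.14). In 5 genes, Rpl30, Rps28, Rps2, Rps23 and Rps3, every deleted library was below every control library, as in 1.44% of all genes. In 46 further genes 5 of the 6 deleted libraries were below the lowest control, a count that was not made over all genes. Genes just inside the threshold were Rpl27 and Rpl7a (adjusted p = 0.0414 and 0.0496), and those just outside it Rpl35, Rpl10a and Rps12 (0.0526, 0.0561 and 0.0584). The count was 75 without deleted 1, 26 without deleted 3, 26 without deleted 5, 29 without deleted 7 and 31 without control 5, where 10.4, 4.73, 4.26, 4.45 and 4.68% of all genes fell. DESeq2's test called 58 genes lower and 0 higher, beside 9.96% and 2.96% of all genes, and 43 genes fell by at least 1 on the log2 scale, beside 4.75% of all genes lower and 0.968% higher by that much. With receptor share as a covariate the count was 1, as described further on.

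**Figure D2:**
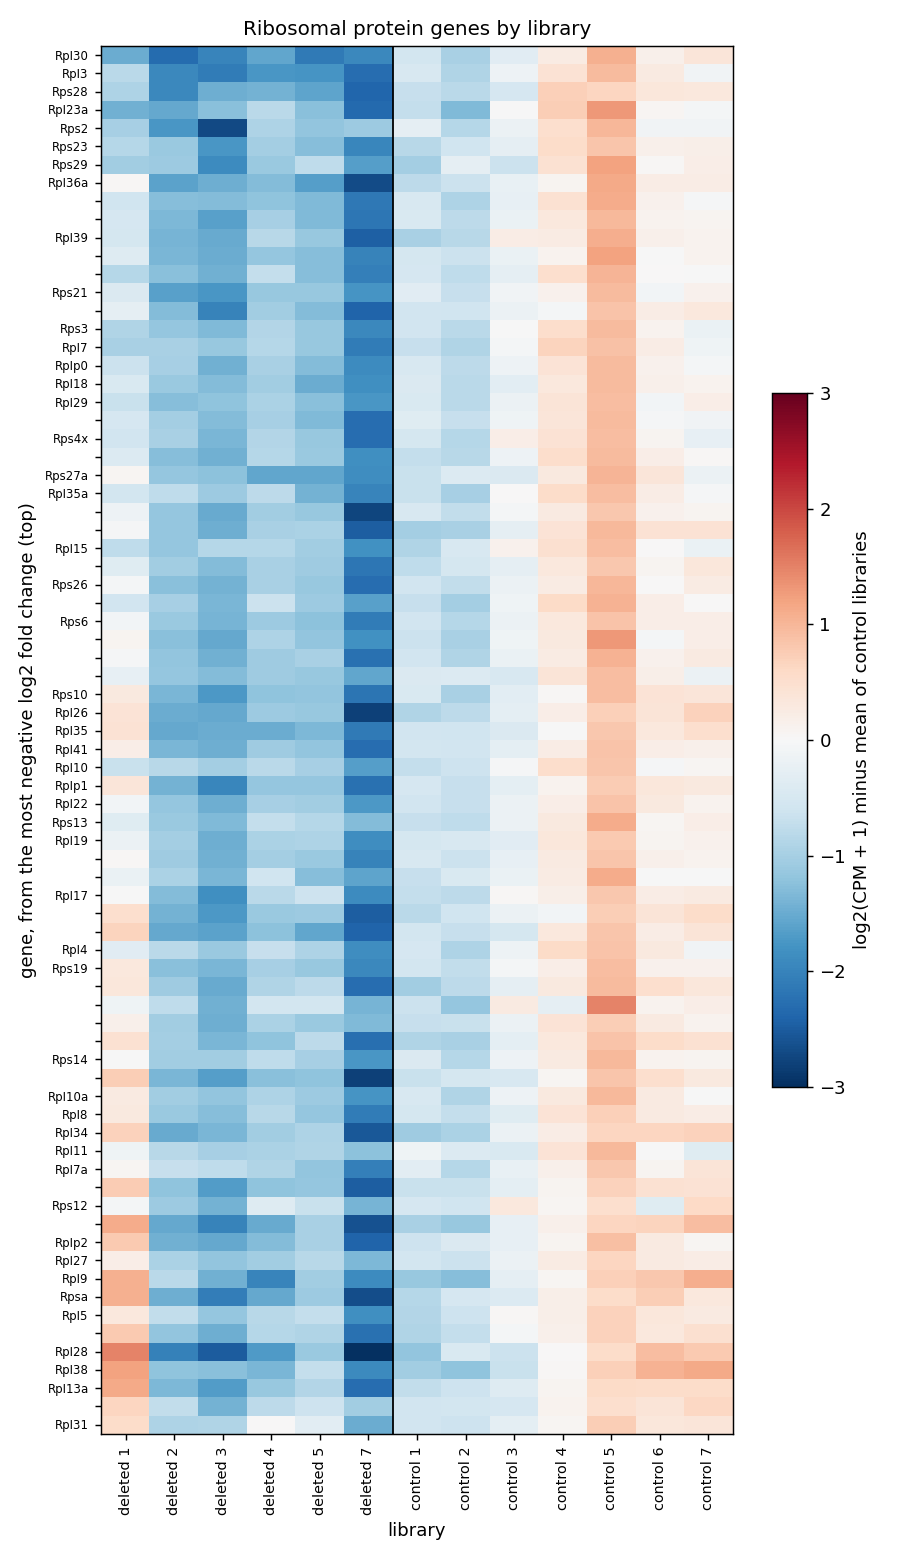
log2(CPM + 1) of each of the 76 ribosomal protein genes (rows, ordered by fold change, with names for genes given in the text) in each library (columns), as the difference from the mean of the control libraries, with colours ending at -3 and 3. The deleted libraries other than deleted 1 are blue in nearly every row, deleted 7 most, control 5 is red, and deleted 1 turns from blue at the top to red near the bottom.

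Among large subunit genes the smallest p-values belonged to Rpl30, Rpl3, Rpl23a, Rpl18 and Rpl29. Rpl30 (chr15:34440505-34443276, RefSeq annotation of GRCm38.p6, as for all genes placed here), which in yeast also binds its own transcript, was at 26.5, 14.6, 18.5, 25.1, 16.8 and 19.1 CPM in deleted 1, 2, 3, 4, 5 and 7. In control 1 to 7 it was at 51.7, 38.3, 60.2, 90.9, 161, 84.2 and 97.9 CPM. The groups were apart, and here deleted 1 was no exception. Its log2 fold change was -2.05 (SE 0.28, adjusted p = 0.0001), a level 4.15-fold higher in control.

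Rpl3 (chr15:80077781-80083406), which reaches into the peptidyl transferase region where the peptide bond forms, ran from 37.4 through a median of 50.7 to 105 CPM in deleted and from 99.2 through 172 to 356 CPM in control libraries. The single overlap was deleted 1, and the log2 fold change was -1.81 (SE 0.29, adjusted p = 0.000701). Rpl23a (chr11:78180935-78183584), at the rim of the exit tunnel where the signal recognition particle docks, ran from 8.28 through 17.4 to 25.6 CPM and from 17.6 through 45.5 to 114 CPM. Only 3 of its deleted libraries were below the lowest control, which was control 2, and its log2 fold change was -1.64 (SE 0.34, adjusted p = 0.00459). Rpl18 and Rpl29 had log2 fold changes of -1.25 each, with deleted medians of 78.5 and 142 CPM and control medians of 198 and 316 CPM. In each of these, 5 of 6 deleted libraries lay below the controls.

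The other proteins of the peptidyl transferase region divided. Rpl10 (chrX:74270816-74273135), which completes the subunit late in assembly, ran from 30.8 through 52.3 to 62.7 CPM in deleted and from 60.5 through 96.8 to 177 CPM in control libraries, and fell by 1.07 on the log2 scale (SE 0.25, adjusted p = 0.0093). Rpl4, which lines the tunnel, stood at -1.0 (SE 0.34, adjusted p = 0.0619) and Rpl8 at -0.93, and neither passed the test. Rpl4 overlapped widely, with 363 to 1042 CPM in deleted and 693 to 2393 CPM in control libraries.

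Of the 8 proteins around the exit tunnel 4 fell, namely Rpl23a, Rpl39 (-1.34, SE 0.33), Rpl19 (-1.05) and Rpl17 (-1.03). Of all large subunit genes 27 of 46 fell. Rpl39, a very small protein inside the tunnel, ran from 56.2 through 129 to 217 CPM in deleted and from 159 through 344 to 659 CPM in control libraries. Rpl26, Rpl35, Rpl38 and Rpl31 had values of -1.09, -1.08, -0.73 and -0.44 and did not pass. For Rpl31 the groups overlapped, at 13.7 to 59.1 CPM against 25.9 to 67.5 CPM.

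The stalk, which recruits the elongation factors, is built from Rplp0, Rplp1 and Rplp2. Rplp0 (chr5:115559467-115563729), its base, was at 745, 587, 431, 595, 473 and 313 CPM in deleted 1, 2, 3, 4, 5 and 7 and at 832, 674, 1049, 1546, 2254, 1272 and 1113 CPM in control 1 to 7. Of the deleted libraries, deleted 1 alone reached into the control range. The log2 fold change was -1.25 (SE 0.33, adjusted p = 0.0175). Rplp1 was at 854, 247, 170, 294, 293 and 140 CPM in the deleted libraries and at 408 to 1118 CPM in the controls. Rplp2 was at 605, 127, 121, 141, 177 and 65.4 CPM in the deleted libraries and at 227 to 653 CPM in the controls. In both acidic stalk proteins deleted 1 was far above the rest of its group, and neither passed the test (-1.07, SE 0.37, adjusted p = 0.0667 and -0.85, SE 0.39, adjusted p = 0.168).

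Rpl5 and Rpl11 travel with the small 5S RNA and, when free, bind Mdm2 and so stabilise p53. Rpl11 ran from 21.4 through 26.7 to 47.5 CPM in deleted and from 37.3 through 46.8 to 102 CPM in control libraries and fell by 0.91 on the log2 scale (SE 0.25, adjusted p = 0.024). Rpl5 ran from 53.4 through 112 to 242 CPM and from 104 through 216 to 314 CPM, and did not pass (-0.77, SE 0.30, adjusted p = 0.106). Rpl22, whose loss in mice blocks the development of alpha-beta T cells, ran from 87.6 through 136 to 277 CPM and from 182 through 316 to 526 CPM and fell by 1.07 (SE 0.29, adjusted p = 0.0231).

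The rest of the large subunit genes named by abundance or p-value were of the same size. Rpl35a fell by 1.19 (SE 0.29) and Rpl7a by 0.90 (SE 0.29), each with 3 deleted libraries inside the control range. Rpl41, whose product is among the smallest proteins of the cell, ran from 240 through 486 to 1347 CPM and from 787 through 1305 to 2146 CPM and did not pass (-1.08, SE 0.37, adjusted p = 0.062).

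Among small subunit genes the smallest p-values belonged to Rps28, Rps23, Rps21, Rps2 and Rps29. Rps28 (chr17:33823036-33824562), at the mRNA exit, was at 94.3, 46.0, 64.0, 66.2, 59.6 and 33.7 CPM in deleted 1, 2, 3, 4, 5 and 7 and at 111, 101, 126, 294, 282, 228 and 222 CPM in control 1 to 7. The groups did not overlap, though the highest deleted and the lowest control library were close. Its log2 fold change was -1.68 (SE 0.29, adjusted p = 0.00137).

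All 5 genes of the mRNA channel fell, with a median of -1.30, among them Rps28, Rps2, Rps3 and Rps26 (-1.15). Of all small subunit genes 20 of 30 fell, with a median of -1.14, and the difference was not tested. Rps2 (chr17:24718121-24721927), at the mRNA entry, was at 95.5, 56.5, 28.3, 101, 84.3 and 89.6 CPM in deleted 1, 2, 3, 4, 5 and 7 and ran from 106 through 178 to 381 CPM in control libraries. Here deleted 3, not deleted 7, was lowest, and the fold change was -1.45 (SE 0.30, adjusted p = 0.00551). Rps3 (chr7:99477896-99483709) also sits at the mRNA entry and is known outside the ribosome as a partner of the p65 subunit of NF-kB. It was at 897, 746, 667, 898, 755 and 434 CPM in deleted 1, 2, 3, 4, 5 and 7 and at 1122, 950, 1643, 2383, 3227, 1800 and 1461 CPM in control 1 to 7. No deleted library reached the controls, deleted 1 included, and Rps3 fell by 1.30 (SE 0.34, adjusted p = 0.0187).

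Rps23, a protein of the decoding centre, ran from 29.1 through 50.2 to 63.9 CPM in deleted and from 64.9 through 129 to 207 CPM in control libraries, without overlap, and stood at -1.40 (SE 0.27, adjusted p = 0.00293). Rps21 fell by 1.32 (SE 0.27) and Rps29 by 1.39 (SE 0.30), each with 5 deleted libraries below the controls. Rps6 (chr4:86854099-86857367), the substrate after which S6 kinase is named, was at 292, 143, 118, 146, 133 and 72.2 CPM in deleted 1, 2, 3, 4, 5 and 7 and at 209, 171, 277, 388, 567, 360 and 359 CPM in control 1 to 7. Deleted 1 lay amid the controls and the other 5 below them, and Rps6 fell by 1.14 (SE 0.31, adjusted p = 0.0215). Rps27a, made as a fusion with ubiquitin, fell by 1.19 (SE 0.31), with 33.1 to 128 CPM against 77.6 to 254 CPM.

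Rps13 fell by 1.05 (SE 0.27). Rps12 and Rps14, the latter lost from 1 chromosome in a human myelodysplastic syndrome, had values of -0.86 (SE 0.29) and -0.94 (SE 0.33) and did not pass. Rps19, the gene most often mutated in Diamond-Blackfan anaemia, an inherited failure of red cell production, ran from 101 through 170 to 485 CPM in deleted and from 232 through 424 to 740 CPM in control libraries. It did not pass (-0.97, SE 0.33, adjusted p = 0.0638). Of 11 genes mutated in that anaemia 7 fell, with a median of -1.09 over the 11, beside 47 of the 76 with a median of -1.08. The 4 genes on the X chromosome, Rps4x (-1.23, SE 0.31), Rpl39, Rpl10 and Rpl36a (-1.39, SE 0.36), all fell, with a median of -1.28 beside -1.07 for the 72 autosomal genes, of which 43 fell.

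The fold changes were read against the general trend with abundance, since genes with more reads had lower fold changes throughout the table. The bins are of average log2 CPM, a count of reads per gene that is not corrected for length. Among other genes, 14.1% fell between 5 and 6 (median log2 fold change -0.16), 32.7% between 7 and 8 (-0.59) and 45.2% at 9 and above (-0.96). For ribosomal protein genes the medians of the same bins were -0.95, -1.13 and -1.08, with 9 of 11, 15 of 24 and 7 of 15 genes lower. The fold changes of the family were thus similar at all abundances, below the median of other genes by more in the lower bins and by little at 9 and above.

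**Figure D3:**
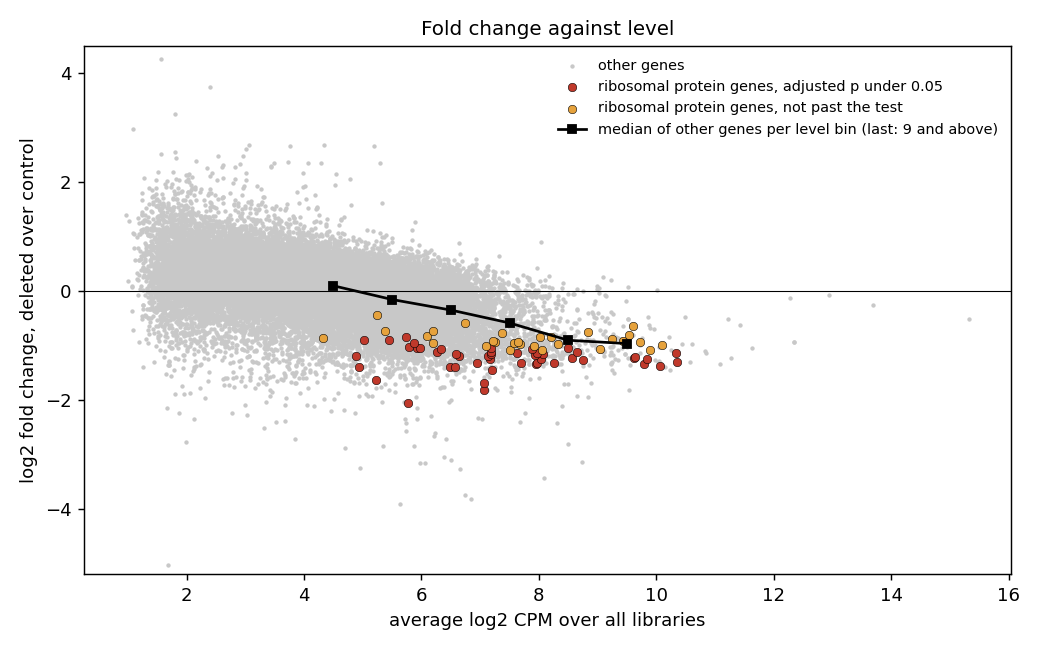
log2 fold change of deleted over control against average log2 CPM for all genes tested (grey), ribosomal protein genes past the test (red) and not past it (orange), with the median of other genes per bin (black squares). The grey cloud bends down to the right, from a median of 0.10 between 4 and 5 to -0.96 at 9 and above, and the ribosomal protein genes stay near -1.08.

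The library labelled deleted 1 differed from the other deleted libraries gene by gene. The following genes were singled out after their values were seen. In Rpl28 (chr7:4792965-4794547) it held 224 CPM, while deleted 2, 3, 4, 5 and 7 held 18.7, 13, 23.7, 36.0 and 5.42 CPM and the controls 34.0 to 150 CPM. That is 12 times the median of the other deleted libraries. Rpsa was 6.12, Rpl9 5.91, Rpl38 5.86 and Rpl13a 5.57 times that median. Rpsa, whose product also serves as a laminin receptor, held 1811 CPM in deleted 1 and 136 to 405 CPM in the other deleted libraries, beside 480 to 1440 CPM in the controls. At the other end, Rps3 was 1.20, Rps2 1.13, Rpl7 1.12, Rps29 1.06 and Rpl23a 0.863 times the median of the other 5.

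So within the library labelled deleted 1 the family did not shift as a block. The log2 ratio of Rps3 to Rpsa was -1.01 there, 0.90 to 1.72 in the other deleted libraries and 0.32 to 1.36 in the controls. In all, 10 of 76 ribosomal protein genes (13.2%) were at least 4-fold above the median of the other deleted libraries. Of 1047 other genes of an average log2 CPM of 7 or more, 25 (2.39%) were. That cut on level was not applied to the 76, and Rpl28, Rpl9 and Rpl38 of the 10 were below it. Of the 76, 9 were above the highest control, a count not made for other genes. The first principal component of the 76 genes held 90.2% of their variance, with all loadings of 1 sign, and ordered the libraries from deleted 7 to control 5. The second held 5.36% and set deleted 1, at 4.81, apart from the other 12 libraries at -2.28 to 1.17. Rpl28, Rpl38, Rpl9, Rpl13a and Rpsa were among the genes with the largest loadings on it. The same library had the largest share of Rn18s, a row of ribosomal RNA, at 1.60% of its count against 0.0484 to 0.762% in the other 12. Of Rn45s, another ribosomal RNA row, it held 6.46%, below deleted 5 (7.04%) and control 2 (7.06%). Without it 75 of 76 genes fell, with a median of -1.44, beside 10.4% of all genes lower and 2.48% higher, and Rpl31 did not pass (-0.73, adjusted p = 0.0869). Rpl28 then stood at -2.20 (SE 0.39, adjusted p = 0.00124), from -0.73 (SE 0.55, adjusted p = 0.425) with all libraries.

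**Figure D4:**
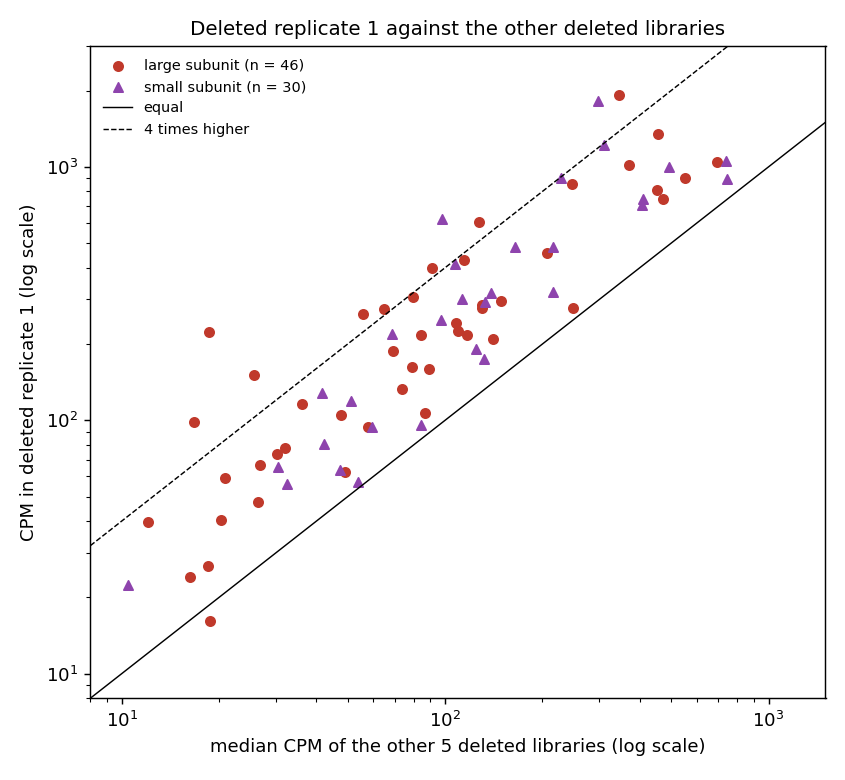
CPM of each ribosomal protein gene in deleted 1 against the median of the other 5 deleted libraries, both on log axes, with lines at equality and at 4 times higher. Rpl28, at 12 times, and 9 other genes lie on or above the upper line, while Rpl23a lies below equality.

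The fall of the family was not separable from the receptor share of the libraries. With the log2 receptor share as a covariate, 1 of 76 genes fell, Rpl30 at -1.19 (SE 0.26, adjusted p = 0.0381), beside 0.233% of all genes lower and 0.224% higher. The median of the 76 was -0.12, with 51 genes below 0 and 25 above, and Rpl3 stood at -0.81 (SE 0.19, adjusted p = 0.0524). A second comparison kept libraries with a receptor share of 0.7 to 1.4%, which left deleted 1 to 5 and control 1, 2, 3 and 7. There Rpl30 fell by 1.61 (SE 0.27, adjusted p = 0.00377) and Rpl3 by 1.23 (SE 0.26, adjusted p = 0.0265), 2 of 76 beside 0.418% of all genes lower and 0.157% higher. The median was -0.57, and 75 of the 76 fold changes were below 0. Rps3, which fell with all libraries, was at -0.71 (SE 0.29, adjusted p = 0.376) and Rps6 at -0.61 (SE 0.29, adjusted p = 0.489). Receptor share averaged 1.29 ± 0.367% (SD, n = 6) for the deleted group and 0.712 ± 0.256% (SD, n = 7) for the controls, so genotype and library background largely cannot be told apart for these genes.

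**Figure D5:**
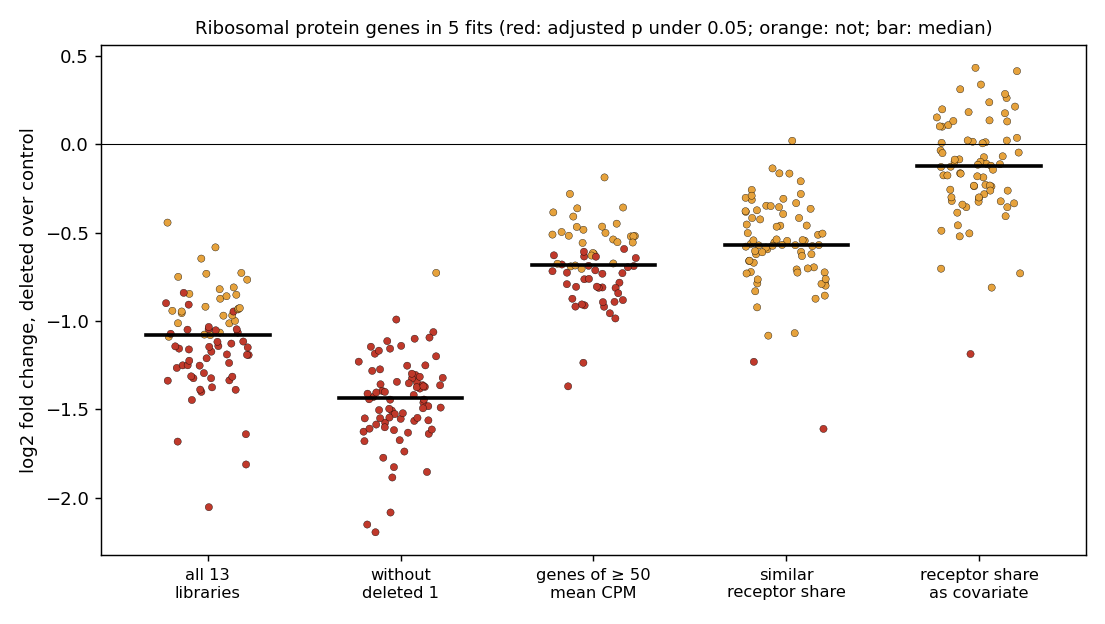
log2 fold changes of the ribosomal protein genes in 5 fits, red past an adjusted p of 0.05, orange not, with the median as a bar. The medians run from -1.44 without deleted 1 through -1.08 with all 13 libraries, -0.68 among genes of at least 50 mean CPM and -0.57 in libraries of similar receptor share to -0.12 with receptor share as a covariate.

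The symbol rule leaves out a few ribosomal proteins with irregular names. Rps3a1 was at 131, 93.1, 36.2, 105, 148 and 23.1 CPM in deleted 1, 2, 3, 4, 5 and 7 and at 192 to 583 CPM in the controls, without overlap, and fell by 1.96 on the log2 scale (adjusted p = 0.00255). Rack1, a signalling scaffold on the small subunit, was at -0.99 (adjusted p = 0.0552) and Fau, whose product is a ubiquitin-like fusion, at -0.64 (adjusted p = 0.43). Fau followed the pattern of Rpl28, with 522 CPM in deleted 1 and 28.3 to 111 CPM in the other deleted libraries.

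Of 9 paralogs of ribosomal proteins 5 fell, namely Rps27l (-1.54), Rpl36al (-1.24), Rps27rt (-1.15), Rpl22l1 (-1.10) and Rpl7l1 (-1.10). Rpl10l, Rpl3l and Rpl39l, known from testis and muscle, were at 0.11, 0.11 and 0.70 and did not pass. Their average log2 CPM was low, at 2.9, 3.3 and 2.1. Of 19 translation factors and similar genes whose mRNAs are known to carry a TOP tract 17 fell and 0 rose, with a median of -1.02, among them Eif3h (-1.27), a subunit of the initiation factor that prepares the small subunit, Btf3 (-1.18), a partner of the nascent chain, and Hnrnpa1 (-1.08), an RNA-binding protein. Tpt1 and Eef1d did not pass. Of 32 genes of ribosome assembly 7 fell and 0 rose, with a median of -0.56, and among the 7 were Nhp2 (-1.19), Nop16 (-0.90) and Eif6 (-0.84). Of 14 regulators, 3 fell: Eif4ebp1 (-1.32), an mTOR target, Myc (-0.99), an activator of ribosome genes, and Eif4e (-0.81), the cap-binding protein. Eif4ebp1 was low, at 3.71 to 9.60 CPM in deleted and 3.64 to 37.5 CPM in control libraries, and no deleted library was below the lowest control. Mtor (0.17), Rptor (0.07), Rps6kb1 (0.01) and Larp1 (-0.35) did not pass. Beside these counts, 4.84% of other genes fell at an average log2 CPM of 4 to 5, 14.1% at 5 to 6 and 21.1% at 6 to 7. The share was 32.7% at 7 to 8, 48.1% at 8 to 9 and 45.2% at 9 and above. Neither the lists' differences from these shares nor those between the lists were tested.

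Reads of ribosomal protein genes can be divided among near-identical copies. For 16 of the 76 genes the table holds 36 rows of pseudogenes or retrogenes named after them, and in 11 the copies held more counts than the gene itself. The copies of Rpl17 held 6.60 times, those of Rps12 5.34 times and those of Rpl31 3.70 times the count of the gene. The levels of all 11 are uncertain, those of Rps27a (3.36 times) and Rplp2 (1.60 times) included. Of 33 ribosomal protein pseudogene rows tested 13 fell and 0 rose, with a median of -0.83, beside 8.52% of all genes lower and 1.66% higher. With the copies added, Rpl34 went from -0.92 (adjusted p = 0.136) to -1.06 (adjusted p = 0.0401) and the count from 47 to 48. Rpl31 went from -0.44 (adjusted p = 0.355) to -0.73 (adjusted p = 0.0738), while Rps27a went the other way, from -1.19 to -1.05. Moreover 29 of the genes host 58 small nucleolar RNA genes in the annotation, and 21 (10 hosts and 11 others) overlap some other gene. No source used here gives the strand setting of the counting, so reads of overlapping genes may be shared. The medians of hosts and of the other 47 genes were -1.07 and -1.08.

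Among the 56 genes with a matched window, those with and without the annotated TOP tract had medians of -1.08 and -1.07. Of the 13 with it 7 fell, and of the others 26. The mRNAs of the family carry the tract as described above, so genes without it here may have an annotated start away from the true one. The split therefore cannot show whether the tract matters. In Rps6, Rps21, Rps10, Rpl15 and Rpl35a, printed above, the tract stands in genes that fell, and in Rplp2, Rpl28 and Rpl38 in genes that did not pass. The authors' deposited table, which holds its own fold changes and false discovery rates, had 53 of the 76 genes lower at a rate under 0.05 and 0 higher, beside 7.47% of its 26720 genes lower. Its fold changes of the 76 ran from -2.02 to -0.47 on the log2 scale. Of the 53 genes in the authors' deposited table, 46 also fell here, 7 did not, and 1 gene fell here alone.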

How the data were processed

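Per the labels' protocols, cDNA of sorted Treg cells was made with a SMART-Seq v4 kit for small inputs. The authors deposited whole-number counts per gene, made with featureCounts 2.0.1 on GRCm38 (mm10) per the submitters' processing notes, which also name edgeR 3.28 and DESeq2 1.26.0. Aligner, annotation and strand setting: not given in the sources used here. A second table that the authors deposited compares the groups, gives log2 fold changes and p-value columns and was used for 1 comparison. From the counts, edgeR 4.0.16 (R 4.3.3, limma 3.58.1) fitted 24068 of 26720 genes after its filterByExpr filter, with TMM scaling, the quasi-likelihood F test and Benjamini-Hochberg adjustment over all genes tested at 0.05. CPM values are TMM-normalised. DESeq2 1.42.0 and limma-voom served as alternatives, 26 in all. The pipeline was tested on simulated data. No pair of libraries in a group was a duplicate (smallest chi-square per degree of freedom 8.84 over 36 pairs). Library totals of 2671660 to 8323919 counts set the precision.

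The members and gene lists were chosen with earlier results of these data known. Named genes were, per subunit, the 5 with the smallest p past the threshold in each direction, the 3 highest and 3 lowest in average CPM and those of known roles, and up to 3 genes of each other list. A few of these genes are not reported here.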

Additional observations from a re-analysis of the deposited data

Results flagged for a closer look

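The 96 sets of values were each a gene named by rule, or a share or ratio over the family, in 1 group. Of these, 19 held a library far from the rest of its group by Dixon's test at 95%. A rate of 1 in 20, about 4.8 sets, holds only for normally distributed values, and the CPM values were not logged. The 4.8 is thus only a rough guide. The sets are not independent, since the genes share their libraries.

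The library labelled deleted 1 was the high value in 13 sets. Among large subunit genes it held 105 CPM of Rpl3 (others 37.4 to 54.6), 39.5 CPM of Rpl36a (5.14 to 15.0), 1347 CPM of Rpl41 (240 to 562), 242 CPM of Rpl5 (53.4 to 118), 47.5 CPM of Rpl11 (21.4 to 28.5) and 277 CPM of Rpl22 (87.6 to 146). Of the stalk proteins it held 854 CPM of Rplp1 (140 to 294) and 605 CPM of Rplp2 (65.4 to 177). Among small subunit genes it held 119 CPM of Rps21 (46.2 to 72.7), 292 CPM of Rps6 (72.2 to 146), 485 CPM of Rps19 (101 to 196) and 128 CPM of Rps27a (33.1 to 55.1). Fau, the ubiquitin-like fusion gene, was at 522 CPM (28.3 to 111).

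Control 5, the library with the most counts, was the high value in the other 6 sets. It held 85.4 CPM of Rpl36a (others 21.9 to 45.4), 659 CPM of Rpl39 (159 to 368), 310 CPM of Rps21 (98.5 to 176), 157 CPM of Rps13 (42.1 to 88.0) and 740 CPM of Rps19 (232 to 450). Of Eif6, an assembly factor outside the symbol rule, it held 223 CPM (72.8 to 132).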

How the results depend on the processing

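The count of 47 lower ribosomal protein genes (27 large, 20 small) stayed within 1.5 times that number under the other scalings, filters and the DESeq2 test (37 to 58), and 0 genes were higher in any of the 26 alternatives. limma-voom with sample weights gave 75 (45 large), with 12.2% of all genes lower and 4.88% higher. Receptor share as a covariate gave 1 (1 large, 0 small) with a median of -0.12, and libraries of similar receptor share gave 2 (2 large, 0 small). Upper quartile scaling shifted log2 fold changes from the main fit by a median of 0.18. The fit on genes of at least 50 mean CPM shifted them by 0.41. The medians over all genes tested in these 2 fits were 0.23 and 0.06, against 0.06 in the main fit. The family's medians were then -0.87 and -0.68, with 41 of 76 and 37 of 66 genes lower, and the calls over all genes divided into 1208 lower and 761 higher and into 717 and 561, against 2050 and 400. Leaving out 1 library at a time gave 26 to 75 genes (16 to 45 large, 10 to 30 small) and medians from -1.44 to -0.90. After each group's mean was taken out of every gene of average log2 CPM 5 or more, same-numbered libraries of the 2 groups correlated at -0.30 to 0.37. The labels do not say whether equal numbers mark libraries handled together, and these correlations cannot settle it. A fit with the replicate number as a block gave 16 (9 large, 7 small), with 3.09% of all genes lower. The log2 ratio of large to small subunit, deleted minus control, was -0.0234 from summed counts and turned to 0.0457 from member medians. Under the receptor covariate 25 of the 76 fold changes were above 0, and of 46 genes named by rule 6 changed sign, none past the test: Rpl4 to 0.022, Rps14 to 0.0091, Rplp2 to 0.14, Rpl5 to 0.13, Rps19 to 0.0067 and Fau to 0.45, and the cause was not tested. Of 1187 values of those 46 genes, 985 kept direction and side of the threshold, 155 lost and 41 gained the call. Shares of the count taken without receptor rows or over filtered genes moved by less than the spread between libraries. Depth limited none of the 76 genes to fewer than 1184 counts over all libraries.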
